A study of Mus musculus with 8 samples.

Results

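The mouse genome carries its Hox genes in 4 clusters, and 39 of the 23366 gene symbols in the count table are members: 11 of Hoxa on chromosome 6, 10 of Hoxb on chromosome 11, 9 of Hoxc on chromosome 15 and 9 of Hoxd on chromosome 2. Members were taken by symbol, and where a symbol had several transcript rows (Hoxa10, Hoxb3 and Hoxd11) the row with the highest total count was used. All 4 clusters were read in the wild-type (WT) fibroblasts, whereas the libraries labelled as Kdm3a knockouts held transcripts of Hoxa and Hoxd and almost none of Hoxb and Hoxc. At the 5′ end of these clusters Hoxd11 to Hoxd13 and Hoxa13 were higher in KO-labelled libraries, fed and starved, led by Hoxd13. After 12 h of glucose starvation most measurable Hox transcripts were lower in cells of both labels.

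Hox genes encode homeodomain transcription factors that record position along the body axis. Within a cluster, genes are numbered by paralog group from 1 at the 3′ end to 13 at the 5′ end, and this order follows the order in which they are switched on and how far towards the tail and limb tip they act. Low-numbered genes pattern the hindbrain and pharyngeal arches, central genes the neck and trunk, and genes of groups 9 to 13 the lower trunk, the tail and the segments of the limb. Fibroblasts are known to keep the Hox pattern of the body site they came from when grown in culture. Polycomb complexes hold the silent part of each cluster, trithorax complexes its active part, and proteins of the TALE family (Pbx, Meis and Pknox) bind DNA together with Hox proteins.

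The libraries came from MEFs, fibroblasts cultured from mouse embryos, here at passages 3 to 5 on the C57BL/6 background. The 4 groups of 2 libraries each were kdm3a KO cells starved for 12 h, kdm3a KO cells fed (0 h), WT cells starved for 12 h and WT cells fed (0 h). Fed cells were in DMEM with 10% FBS and starved cells in glucose-free DMEM with 10% dialyzed FBS, so starvation below means the loss of glucose together with the dialyzed serum and the added time, which cannot be told apart here. Kdm3a encodes a demethylase of histone H3 lysine 9. The sources used here give neither the type of knockout allele nor the embryos, sex or body part from which each line was made, and they do not say that replicates were separate cultures. A p-value here therefore rests on how far libraries within groups differ, with the spread estimated over all 4 groups together. That spread may be technical.

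The rows used, each the highest of its gene symbol, held 38407520 to 53602289 counts per library. Kdm3a itself was read at 55.2 and 55.4 CPM in fed KO-labelled libraries and at 56.1 and 56.4 CPM in fed WT libraries (log2 fold change -0.02 ± 0.043, adjusted p = 0.619 by edgeR's quasi-likelihood test), so the KO label is not visible in this total and the name KO-labelled is used. Xist stood at 869 to 1370 CPM in KO-labelled libraries and at 0.939 to 1.54 CPM in WT libraries. Genotype label, sex and line of origin cannot be told apart in any comparison between the labels. Summed CPM of 12 fibroblast markers was 10754 to 13226 in KO-labelled and 19995 to 21772 in WT libraries, none of them at 0 in all libraries. By the same test 5 of the 12 were higher in fed KO-labelled cells, 6 lower and 1 not called (median log2 fold change -0.05). In starved cells 6 were higher, 5 lower and 1 not called (median 0.72). Of all tested genes 74.4% were called between fed labels and 79.6% between starved labels. Ranges of summed CPM in KO-labelled against WT libraries were 2.56 to 4.54 against 21.5 to 25.8 for 10 epithelial markers and 59.5 to 60.3 against 99.7 to 252 for 9 neural and glial markers. Of 4 tested epithelial markers, 2 were lower and 2 not called in fed KO-labelled cells. When starved, 1 was higher, 2 lower and 1 not called. Of 5 tested neural and glial markers, 1 was higher and 4 lower in fed KO-labelled cells. When starved, 2 were higher, 2 lower and 1 not called. Sums of 8 endothelial and of 9 blood and macrophage markers differed with starvation and are given beside that comparison. At 0 in every library were Esrp1 of the epithelial list, Tie1, Emcn and Cldn5 of the endothelial list, Ptprc, Emr1 and Hbb-b1 of the blood list and Rbfox3, Sox10 and Olig2 of the neural list. The part of these differences in the Hox results was not tested.

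Promoters of 4 members are shown because they bracket the pattern: Hoxd13 and Hoxa13 were higher in KO-labelled cells, while Hoxb8 and Hoxb4 had at most 2 counts in any library of those cells. Each is the 250 bases before the RefSeq gene start (GRCm38.p6), with CG dinucleotides in capitals. The windows are chr2:74667975-74668224 (plus strand) for Hoxd13, chr6:52260881-52261130 (minus strand) for Hoxa13, chr11:96281655-96281904 (plus strand) for Hoxb8 and chr11:96318017-96318266 (plus strand) for Hoxb4, and none of them overlaps an annotated exon.
Hoxd13 promoter: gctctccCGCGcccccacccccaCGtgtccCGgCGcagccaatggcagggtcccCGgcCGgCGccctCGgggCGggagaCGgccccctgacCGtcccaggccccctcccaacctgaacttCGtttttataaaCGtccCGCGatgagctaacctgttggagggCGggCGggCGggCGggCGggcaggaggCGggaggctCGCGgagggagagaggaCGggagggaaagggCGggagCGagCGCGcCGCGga
Hoxa13 promoter: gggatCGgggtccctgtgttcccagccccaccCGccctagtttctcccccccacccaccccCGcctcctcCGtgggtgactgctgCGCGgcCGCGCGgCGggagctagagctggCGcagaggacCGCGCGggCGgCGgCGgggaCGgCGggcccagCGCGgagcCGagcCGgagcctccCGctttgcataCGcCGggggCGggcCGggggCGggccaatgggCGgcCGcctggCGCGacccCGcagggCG
Hoxb8 promoter: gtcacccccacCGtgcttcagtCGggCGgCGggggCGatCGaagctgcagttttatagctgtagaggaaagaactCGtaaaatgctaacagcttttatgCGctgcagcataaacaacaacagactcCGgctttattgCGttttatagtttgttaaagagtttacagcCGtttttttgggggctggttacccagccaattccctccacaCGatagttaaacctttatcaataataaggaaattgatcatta
Hoxb4 promoter: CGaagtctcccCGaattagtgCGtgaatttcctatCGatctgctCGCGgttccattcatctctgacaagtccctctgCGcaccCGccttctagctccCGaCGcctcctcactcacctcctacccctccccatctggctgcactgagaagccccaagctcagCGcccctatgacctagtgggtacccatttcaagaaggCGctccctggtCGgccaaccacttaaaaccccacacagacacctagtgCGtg
The windows hold 31, 35, 12 and 14 CG dinucleotides in this order. The other members higher in fed KO-labelled cells had 20 (Hoxd10), 2 and 20 (Hoxd11, with 2 promoters), 10 (Hoxd12), 3 (Hoxa9) and 13 (Hoxa11). Of Hoxb only Hoxb1, Hoxb4 and Hoxb8 were matched to a promoter, and of Hoxc only Hoxc4. RefSeq's promoter table matched 22 of the 39 symbols, with 24 promoters, whose median was 12.5 CG against 6 for all 32851 promoters in the table, and whose median GC content was 58.6% against 52.4%. On either strand, CCAAT occurred in 14 of the 24 Hox promoters (58.3%, against 33.8% of all), TATAAA in 4 (16.7% against 12.4%) and TGATNNAT, a motif of Pbx-Hox pairs, in 4 (16.7% against 7.68%). These letter matches describe the windows and are not evidence of binding.

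The clusters also carry microRNA genes, whose mature products bind messengers, Hox messengers among them. Their sequences are given because the Mir196a-1 locus in Hoxb followed its cluster. The Mir196a-2 locus in Hoxc, with the same mature sequence, had no counts in any library, those of WT cells included. The seed, bases 2 to 8, is in capitals (RefSeq, GRCm38.p6).
miR-196a-5p (Mir196a-1, Hoxb): uAGGUAGUuucauguuguuggg
miR-196b-5p (Mir196b, Hoxa): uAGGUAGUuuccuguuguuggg
miR-10a-5p (Mir10a, Hoxb): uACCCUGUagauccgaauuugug
miR-10b-5p (Mir10b, Hoxd): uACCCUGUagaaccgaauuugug
The first pair shares the seed AGGUAGU and the second pair the seed ACCCUGU. The table counts reads over these short loci and not mature microRNAs, so the values given further on are read counts at the locus.

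Levels of different genes were compared in CPM (counts scaled to a common library size with edgeR's TMM factors) per kilobase of the annotated transcript. Summed over the 39 members, this level was 78.8 ± 0.37 in starved KO-labelled, 279 ± 2.6 in fed KO-labelled, 92.5 ± 1.2 in starved WT and 218 ± 0.90 in fed WT libraries (SD, n = 2 each). Of all counts in the rows used, Hox transcripts took 0.0167 and 0.0168% in starved and 0.0657 and 0.0651% in fed KO-labelled libraries. In WT libraries they took 0.0161 and 0.0155% when starved and 0.0507 and 0.0510% when fed. Starved libraries were thus lower than fed libraries of either label, without overlap. In such bulk samples, fewer cells of a type and less RNA per cell cannot be told apart. At least 1 CPM was reached by 10 members in each starved KO-labelled library and by 16 in each fed KO-labelled library. In WT cells it was reached by 19 members in each starved library and by 31 and 32 in the fed libraries. Hoxb1 and Hoxb13, the 3′-most and 5′-most genes of their cluster, and Hoxd1 had 0 counts in all 8 libraries, which allows up to 3 counts, or 0.0541 to 0.0915 CPM depending on the group. Intervals and floors given here cover counting error only.

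**Figure D1:**
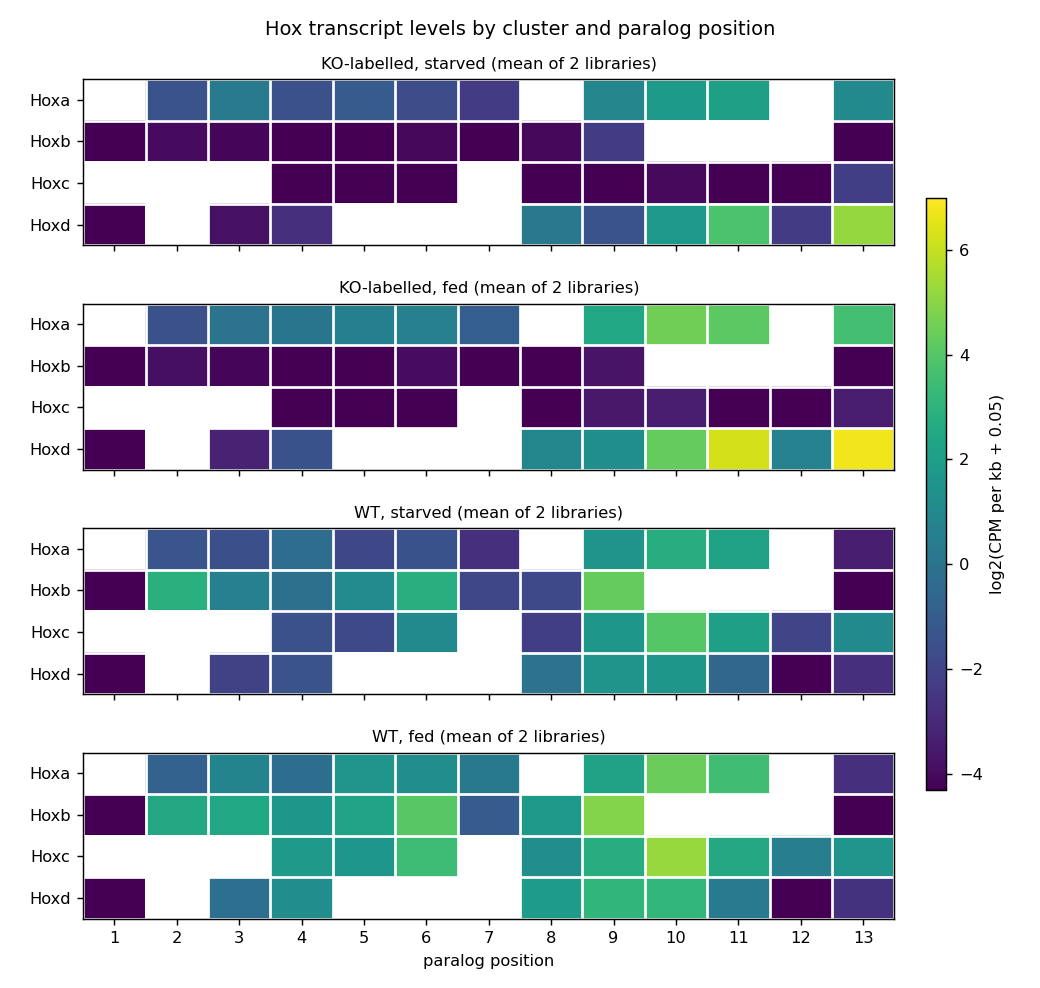
Group mean level (colour, log2 of CPM per kb plus 0.05, 2 libraries per group) of each Hox gene by cluster (rows) and paralog position (columns), with white where the cluster has no gene or its value is not shown. The Hoxb and Hoxc rows are at the bottom of the scale in KO-labelled cells and filled in WT cells apart from Hoxb1 and Hoxb13, and the brightest tile is Hoxd13 in fed KO-labelled cells at 109 CPM per kb.

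The share of each cluster in the Hox total differed between the labels. Hoxd gave 71.3% of the summed CPM per kb in starved and 76.4% in fed KO-labelled cells, against 8.85% in starved and 11.9% in fed WT cells. Hoxa gave 28.3% in starved and 23.5% in fed KO-labelled cells, against 18.4% in starved and 22.2% in fed WT cells. Hoxb gave 0.228% in starved and 0.0236% in fed KO-labelled cells, against 42.1% in starved and 31.8% in fed WT cells. Hoxc gave 0.223% in starved and 0.0432% in fed KO-labelled cells, against 30.6% in starved and 34.1% in fed WT cells. Hoxa and Hoxd thus carried nearly the whole Hox level in KO-labelled cells, and in WT cells Hoxb and Hoxc together carried the greater part.

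**Figure D2:**
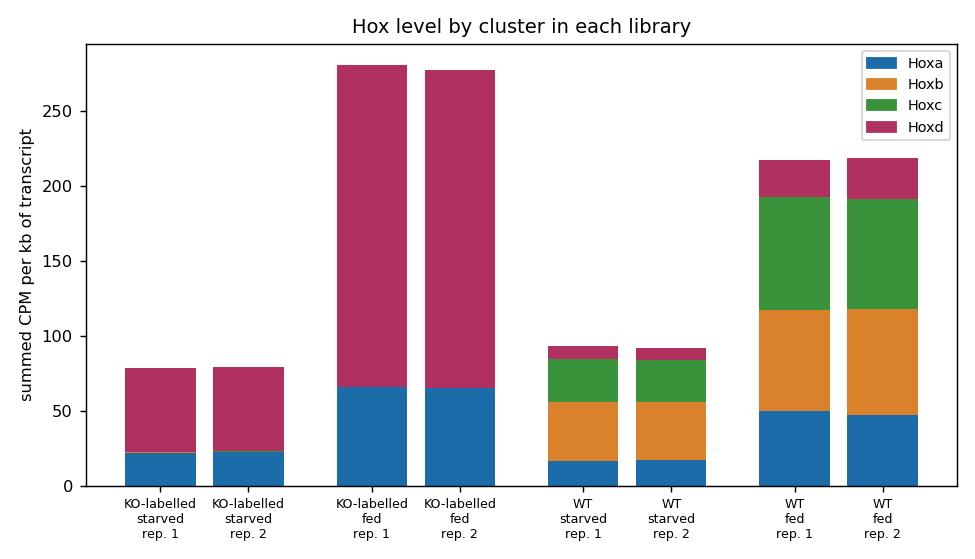
Summed CPM per kb of the 39 Hox genes in each library, stacked by cluster. Hoxb and Hoxc are too small to see in the 4 KO-labelled bars, and Hoxd reaches 214 and 212 CPM per kb in the fed KO-labelled libraries against 24.8 and 26.9 in the fed WT libraries.

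By position, groups 9 to 13 gave 84.8% of the level in starved and 96.7% in fed KO-labelled cells, against 71.6% in starved and 64.9% in fed WT cells. Groups 4 to 8 gave 3.00% in starved and 2.30% in fed KO-labelled cells, against 17.2% in starved and 28.1% in fed WT cells. The paralog position averaged over members with the level as weight was 10.5 and 10.6 in starved and 11.5 in both fed KO-labelled libraries, against 8.28 and 8.23 in starved and 8.23 and 8.19 in fed WT libraries. Hoxd13 was the top member in each KO-labelled library, with 38.9 to 47.6% of the Hox level. In WT cells Hoxb9 led when starved (21.8 and 20.8%) and Hoxc10 when fed (17.5 and 17.4%).

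The comparison of the labels in fed cells asked how the Hox pattern differs between cells called Kdm3a knockouts and WT cells with nutrients at hand. Of the 36 members that passed the filter on low counts, 7 were higher and 24 lower in KO-labelled cells and 5 did not pass the test (edgeR quasi-likelihood, Benjamini-Hochberg adjusted p under 0.05 over 14418 genes). Of all 14418 tested genes 74.4% were called in this comparison, with 34.5% higher and 39.8% lower. Of the 36, 16 members (Hoxd3 and all tested Hoxb and Hoxc members but Hoxb9 and Hoxc13) passed the filter only through the WT libraries, and Hoxd12 and Hoxa13 only through the KO-labelled libraries. Their direction between the labels followed from the filter, and their values are a description. Fold changes are log2 values, KO-labelled over WT, with a standard error derived from the F statistic. Where a group had 0 counts, a lower bound against 3 counts per library replaces the fold, and where a group had 1 to 20 counts over its 2 libraries, a ratio with its 95% Clopper-Pearson interval is given.

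The members higher in fed KO-labelled cells were Hoxd10 to Hoxd13, Hoxa9, Hoxa11 and Hoxa13, all from groups 9 to 13. Hoxd13, which patterns digits and the genital tubercle and is altered in human synpolydactyly, had 91.9 and 93.3 CPM in starved KO-labelled libraries and 271 CPM in both fed ones, against 0.399 and 0.0606 CPM in starved and 0.278 and 0.263 CPM in fed WT libraries. Its WT levels rest on 2 to 13 counts per library. KO-labelled libraries do not overlap WT libraries, while the starved and fed WT libraries do overlap. The fed difference was 9.95 ± 0.11 (992-fold, adjusted p = 3.81e-25). Hoxd11, a gene of the forearm segment, had 15.6 and 15.4 CPM in starved and 86.8 and 85.4 CPM in fed KO-labelled libraries, against 0.798 and 0.576 CPM in starved and 1.07 and 1.56 CPM in fed WT libraries. Its fed difference was 6.04 ± 0.10 (65.8-fold, adjusted p = 8.7e-22), although 23.9% of its transcript is shared with Gm28309, annotated on the same strand. Hoxd12, a digit gene between them, had 10 and 27 counts in starved and 269 and 178 counts in fed KO-labelled libraries and 0 counts in the 4 WT libraries. It was at least 55.9-fold higher in fed KO-labelled cells. Hoxd10, which acts in limb and lumbar motor neurons, was higher by a smaller step, with 36.9 and 36.1 CPM in fed KO-labelled libraries against 16.2 and 16.1 CPM in fed WT libraries (1.18 ± 0.074, adjusted p = 6.4e-12).

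Hoxa13, which with Hoxd13 patterns the hand and foot plate, had 2.48 and 2.78 CPM in starved and 16.1 and 15.8 CPM in fed KO-labelled libraries, against 0.0614 and 0.0606 CPM in starved and 0.139 and 0.120 CPM in fed WT libraries. In fed cells the ratio was 123 (68.8 to 248), with 6 and 5 counts in the WT libraries. Hoxa11, the forearm paralog of Hoxd11, had 9.36 and 10.1 CPM in starved and 42.6 and 38.9 CPM in fed KO-labelled libraries, against 10.1 and 11 CPM in starved and 27.3 and 26 CPM in fed WT libraries. It was higher in fed KO-labelled cells by 0.61 ± 0.071 (adjusted p = 1.01e-07). An antisense RNA, Hoxa11os (listed as Hoxa11as), covers 35% of the Hoxa11 transcript, and whether the libraries kept strand is not given in the sources used here. Hoxa9 was higher by 0.27 ± 0.095 (adjusted p = 0.0148), a call that is lost without fed WT replicate 2 (0.24) or fed KO-labelled replicate 2 (0.17). Hoxa10, the highest Hoxa member, had 59.5 and 59.1 CPM in fed KO-labelled libraries against 56.3 and 53.6 CPM in fed WT libraries and did not pass (0.11 ± 0.053, adjusted p = 0.0666). It was called higher with library totals (0.23), with RLE size factors (0.15), with summed isoform rows (0.18), with only the groups compared (0.17) and without either starved WT library (0.17).

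**Figure D3:**
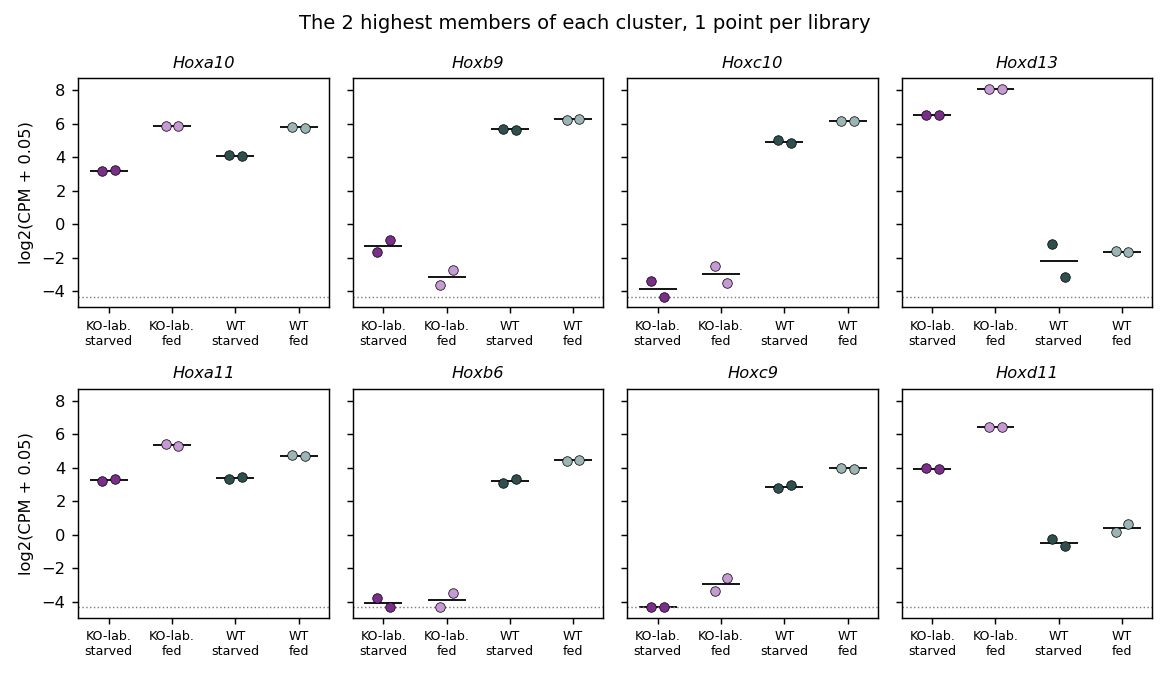
log2 of CPM plus 0.05 in each library (points) with the mean of 2 (line) for the 2 members of highest mean CPM in each cluster, the dotted line marking 0 CPM. The Hoxb and Hoxc genes sit near the dotted line in KO-labelled libraries, Hoxd13 and Hoxd11 are higher there than in WT libraries, and Hoxa10 and Hoxa11 differ far less between the labels in fed cells.

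The rest of Hoxa stayed within a few-fold between the labels in fed cells. Hoxa3, a gene of the pharyngeal arches, thymus and parathyroid, was lower in KO-labelled cells by -0.79 ± 0.21, Hoxa5, needed in the lung and the neck skeleton, by -1.08 ± 0.19 and Hoxa7 by -1.30 ± 0.36. The Hoxa7 call is lost without fed WT replicate 1 (-0.99). The arch gene Hoxa2 (-0.83 ± 0.43), Hoxa4 (0.31 ± 0.30) and Hoxa6 (-0.66 ± 0.40) did not pass. Every Hoxa member had at least 10 counts in each KO-labelled library. Toward the 3′ end of Hoxd the sign turned: Hoxd9 (-1.86 ± 0.13), Hoxd8 (-1.10 ± 0.20) and Hoxd4 (-2.84 ± 0.28) were lower in fed KO-labelled cells, each past the test. Hoxd3, which passed the filter only through the WT libraries, was lower by a ratio of 14.4 (8.97 to 24.3), given as a description. Hoxd9 read 5.77 and 4.53 CPM in fed KO-labelled libraries against 17.6 and 19.9 CPM in fed WT libraries, without overlap. Hoxd3 and Hoxd4 share exons, and Gm28230, annotated on the same strand, covers 75.0% of the Hoxd3 and 45.1% of the Hoxd4 transcript, so reads of these genes cannot be told apart there.

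The 8 Hoxb members that passed the filter were all lower in KO-labelled cells. Hoxb9, a gene of rib and thoracic patterning and the highest of the cluster, had 0.266 and 0.472 CPM in starved and 0.0324 and 0.0994 CPM in fed KO-labelled libraries, against 52.5 and 48.9 CPM in starved and 75.5 and 78.4 CPM in fed WT libraries. In counts the KO-labelled values are 12 and 25 starved and 2 and 5 fed, and the fed ratio was 1231 in favour of WT (597 to 3062, adjusted p = 1.59e-22). Hoxb6, also a rib gene, had 1 and 0 counts in starved and 0 and 2 in fed KO-labelled libraries, against 8.38 and 10.0 CPM in starved and 21.0 and 22.6 CPM in fed WT libraries. The fed ratio was 1220 in favour of WT (337 to 10082). Hoxb4, known from blood stem cell work, Hoxb5 and Hoxb7 had 0 counts in all 4 KO-labelled libraries. When cells were fed, Hoxb5 was at least 170-fold, Hoxb4 at least 148-fold and Hoxb7 at least 10.6-fold lower in KO-labelled cells. Hoxb8, which acts in the spinal cord and myeloid cells, had 2 counts in starved KO-labelled replicate 1 and 0 in the other KO-labelled libraries, against 345 and 402 counts in fed WT libraries, and was at least 163-fold lower. Hoxb3 and Hoxb2, hindbrain genes, were lower by ratios of 966 (267 to 7981) and 256 (99.7 to 943), and no KO-labelled library held more than 4 counts of either. The antisense Hoxb3os covers 70.5% of the Hoxb3 transcript and 58.5% of the Hoxb2 transcript.

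All 9 Hoxc members were lower in KO-labelled cells as well. Hoxc10, a lumbar and hindlimb gene and the highest of the cluster, had 0.0443 and 0 CPM in starved and 0.130 and 0.0398 CPM in fed KO-labelled libraries, against 32.2 and 28.8 CPM in starved and 72.5 and 72.6 CPM in fed WT libraries. The fed ratio was 813 in favour of WT (442 to 1695). Hoxc9, a thoracic gene, had 0 counts in both starved and 3 and 6 counts in fed KO-labelled libraries, against 221 and 261 counts in starved and 697 and 649 counts in fed WT libraries, a fed ratio of 197 (104 to 432). Hoxc4, Hoxc5, Hoxc6, Hoxc8, Hoxc11 and Hoxc12 had 0 counts in all 4 KO-labelled libraries. In fed cells the lower bounds were 320-fold for Hoxc6, a gene of the upper trunk, 210-fold for the hindlimb gene Hoxc11, 163-fold for Hoxc5, 126-fold for Hoxc4, 80.7-fold for Hoxc8 and 26.7-fold for Hoxc12. Fed WT libraries held 16.3 and 18.3 CPM of Hoxc6 and 11.6 and 11.1 CPM of Hoxc11. Hoxc13, the hair and nail gene at the 5′ end, was the Hoxc member with the most reads in KO-labelled cells, at 16 and 24 counts starved and 5 and 6 counts fed, against 164 and 161 counts in starved and 331 and 277 counts in fed WT libraries. Its fed ratio was 72.9 in favour of WT (40.4 to 147).

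In starved cells the same comparison of the labels gave 7 members higher, 23 lower and 6 not called, where 79.6% of all tested genes were called (41.9% higher, 37.7% lower). Hoxd13 had a ratio of 405 in favour of KO-labelled cells (246 to 724), Hoxd11 differed by 4.49 ± 0.15, Hoxa13 had a ratio of 43.3 (16.7 to 160) and Hoxd12 was at least 4.0-fold higher. Hoxa3 and Hoxa5, which were not higher in fed cells, were higher in starved KO-labelled cells by 2.0 ± 0.28 and 0.88 ± 0.36. The Hoxa5 call (adjusted p = 0.0295) is lost without any 1 of the 4 starved libraries (0.80 to 0.94) and with DESeq2 (0.82). The tested Hoxb and Hoxc members were lower throughout, but all except Hoxb9 and Hoxc13 passed the filter only through the WT libraries. Their direction followed from the filter here too. As for Hoxd3, Hoxd12 and Hoxa13, their values are a description. Hoxc11 was at least 141-fold, Hoxc9 at least 119-fold, Hoxb5 at least 66.8-fold, Hoxc6 at least 52.4-fold, Hoxb4 at least 35.6-fold, Hoxc5 at least 11.1-fold, Hoxc4 at least 9.66-fold, Hoxc8 at least 4.93-fold, Hoxb7 at least 4.46-fold and Hoxc12 at least 3.46-fold lower. Ratios in favour of WT were 1494 (413 to 12345) for Hoxc10, 903 (161 to 35719) for Hoxb6, 585 (161 to 4841) for Hoxb2, 228 (62.6 to 1891) for Hoxb3, 30.6 (7.96 to 262) for Hoxb8 and 8.72 (3.63 to 25.4) for Hoxd3. Hoxb9 was lower by -7.06 ± 0.13 and Hoxc13 by -3.60 ± 0.25. Hoxd9 (-3.11 ± 0.20), Hoxd4 (-1.82 ± 0.47), Hoxa4 (-1.36 ± 0.36), Hoxa10 (-0.91 ± 0.075) and Hoxa9 (-0.71 ± 0.12) were also lower. Hoxa2, Hoxa6, Hoxa7, Hoxa11, Hoxd8 and Hoxd10 did not pass, with log2 fold changes of -0.22 to 0.58. Scaled by library totals, Hoxa11 (0.20) and Hoxd10 (0.34) were called higher. Hoxd8 was called higher without starved KO-labelled replicate 2 (0.65), and Hoxa6, at 1 and 17 counts in starved WT libraries, turned to 2.76 without starved WT replicate 2.

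**Figure D4:**
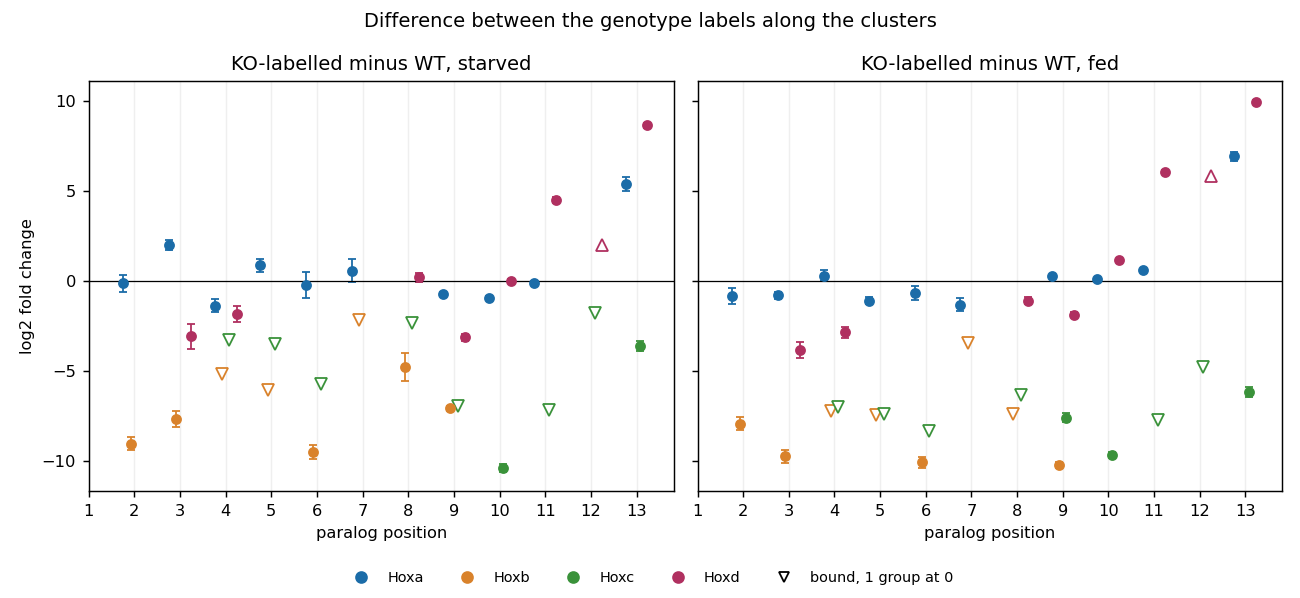
log2 fold change, KO-labelled over WT, by paralog position in starved (left) and fed (right) cells, with points ± SE coloured by cluster and open triangles for lower bounds where a group had 0 counts. Hoxb and Hoxc lie below 0 at every position shown, and in fed cells Hoxa lies between -1.30 and 0.61 up to group 11 while Hoxd is below 0 at groups 3 to 9 and above it at groups 10 to 13.

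Reads at other loci in and beside the clusters were taken from a list of 33 neighbours and cluster RNAs, of which 22 were in the table and 16 tested. In fed cells 4 were higher and 10 lower in KO-labelled cells, where 74.4% of all tested genes were called (34.5% higher, 39.8% lower). Within Hoxb, the noncoding Gm53 had 0 and 0 counts in starved and 1 and 0 in fed KO-labelled libraries, against 244 and 282 in starved and 793 and 663 in fed WT libraries. Mir196a-1 in the same cluster had 0 counts in KO-labelled libraries, against 19 and 19 in starved and 99 and 107 in fed WT libraries, and was at least 44.8-fold lower in fed KO-labelled cells. Hotair, the antisense RNA within Hoxc that has been linked to Polycomb, had 0 counts in KO-labelled libraries, against 27 and 37 in starved and 72 and 62 in fed WT libraries, at least 29.1-fold lower in fed KO-labelled cells. Evx2, the homeobox gene beside Hoxd13, had 25 and 44 counts in starved and 319 and 253 in fed KO-labelled libraries, against 0 and 0 in starved and 2 and 0 in fed WT libraries. Outside the clusters the steps were smaller. Lnp (0.37 ± 0.049) and Mtx2 (-0.31 ± 0.067), which flank Hoxd and Evx2, Skap2 (0.36 ± 0.056) beside Hoxa, Skap1 (-1.18 ± 0.47) beyond Hoxb1, Calcoco1 (0.36 ± 0.043) and Smug1 (-0.76 ± 0.088) on either side of Hoxc were all called in fed cells. Mir196b in Hoxa had 3 and 4 counts in fed KO-labelled against 12 and 11 in fed WT libraries, and Mir10a and Mir10b had at most 6 counts in any library.

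The starvation response in WT cells was tested next. Of 36 members 29 fell, 1 was higher and 6 were not called, where 81.6% of all tested genes were called (36.7% higher and 44.8% lower). Among the 33 members with at least 20 counts in a WT library, the median log2 fold change, starved over fed, was -1.60, beside -0.17 over all tested genes. Of these members Hoxa5, Hoxa6, Hoxa7, Hoxb7, Hoxc8 and Hoxc12 reached 20 counts only in fed libraries, so their direction among the 33 followed from that cut. The 12 fibroblast markers had a median of -1.67 in the same comparison, with 4 higher, 6 lower and 2 not called. Summed CPM of the endothelial markers was 55.0 and 52.9 in starved against 2.39 and 2.56 in fed WT libraries, that of the blood and macrophage markers 7.0 and 10.1 in starved against 19.0 and 19.4 in fed ones, and that of the neural and glial markers 99.7 and 108 in starved against 251 and 252 in fed ones. Of 3 tested endothelial markers 1 was higher, 1 lower and 1 not called, and the 3 tested blood and macrophage markers split likewise. Of 5 tested neural and glial markers 4 were lower and 1 not called. The part of these markers in the Hox values was not tested. The largest falls called were those of the central genes Hoxc8, Hoxb8, Hoxa5 and Hoxc5. Of these, Hoxc8 and Hoxa5 are among the members whose direction followed from the cut. Hoxc8, which acts in brachial motor neurons, had 0.154 and 0.454 CPM in starved against 4.84 and 3.90 CPM in fed WT libraries (ratio 14.4 lower, 9.16 to 23.8, adjusted p = 7.91e-08). Hoxb8 had 0.491 and 0.757 CPM in starved against 7.99 and 9.62 CPM in fed WT libraries (-3.81 ± 0.29, adjusted p = 1.23e-10). Hoxa5 had 0.430 and 0.424 CPM in starved against 6.04 and 5.07 CPM in fed WT libraries (-3.69 ± 0.28). Hoxc5 had 0.737 and 0.636 CPM in starved against 9.19 and 8.40 CPM in fed WT libraries (-3.68 ± 0.26). In each of these 4 genes the starved values lie below the fed values without overlap.

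Falls were smaller toward the 5′ end of Hoxc and Hoxd. By position the medians over members with at least 20 counts were -1.30 for groups 1 to 3 (6 members), -2.80 for groups 4 to 8 (15 members) and -1.18 for groups 9 to 13 (12 members). By cluster they were -1.51 for Hoxa, -1.20 for Hoxb, -2.42 for Hoxc and -1.80 for Hoxd. These medians include Hoxa5, Hoxa6, Hoxa7, Hoxb7 and Hoxc8 of groups 4 to 8, and Hoxc12, which reached 20 counts only in fed libraries. Medians and correlations without them were not computed. Spearman's rho between position and fold change was 0.65 over 9 Hoxc and 0.94 over 6 Hoxd members but -0.24 over 10 Hoxa, -0.05 over 8 Hoxb and 0.11 over all 33, with members sharing the same libraries and cluster. Hoxc12 broke the Hoxc order, with a ratio of 6.78 lower (3.89 to 12.8). In Hoxc the falls ran over -3.51 ± 0.29 for Hoxc4, -2.42 ± 0.17 for Hoxc6, -1.11 ± 0.14 for Hoxc9, -1.25 ± 0.076 for Hoxc10, -0.39 ± 0.14 for Hoxc11 and -0.53 ± 0.18 for Hoxc13. The Hoxc11 and Hoxc13 calls are lost under several alternatives, among them DESeq2 (-0.32 and -0.46). In Hoxd they ran over -2.18 ± 0.41 for Hoxd3, -2.80 ± 0.31 for Hoxd4, -2.0 ± 0.23 for Hoxd8, -1.60 ± 0.13 for Hoxd9, -1.5 ± 0.096 for Hoxd10 and -0.93 ± 0.25 for Hoxd11. The Hoxd11 call is lost without fed WT replicate 2 or starved WT replicate 2 (-0.63 for each).

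In Hoxb, Hoxb9 fell by -0.60 ± 0.065, Hoxb6 by -1.24 ± 0.13, Hoxb5 by -1.16 ± 0.18, Hoxb4 by -1.86 ± 0.21 and Hoxb3 by -1.89 ± 0.17. Hoxb2 was the single member called higher, with 12.3 and 11.6 CPM in starved against 9.36 and 8.95 CPM in fed WT libraries (0.38 ± 0.16, adjusted p = 0.0294). That call is lost without either fed WT library and turns to -0.07 when libraries are scaled by their totals. In Hoxa, Hoxa10 had 17.8 and 16.5 CPM in starved against 56.3 and 53.6 CPM in fed WT libraries (-1.68 ± 0.063), and Hoxa11 fell by -1.34 ± 0.085, Hoxa9 by -0.68 ± 0.11 and Hoxa3 by -2.48 ± 0.27. Hoxa7 and Hoxa6 fell by ratios of 11.6 (6.61 to 22.1) and 7.29 (4.48 to 12.6), and starved Hoxa6 rests on 1 and 17 counts. Hoxa2 (-0.59 ± 0.46) and Hoxa4 (-0.05 ± 0.32) did not pass, nor did Hoxb7 (28 and 21 counts fed), Hoxa13 (6 and 5 counts fed) and Hoxd13 (12 and 11 counts fed). Hoxd13 had 13 and 2 counts in the starved WT libraries and was called lower without starved WT replicate 1 (-2.04), and with library totals Hoxa2 (-1.05) and Hoxb7 (-1.51) were called lower.

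**Figure D5:**
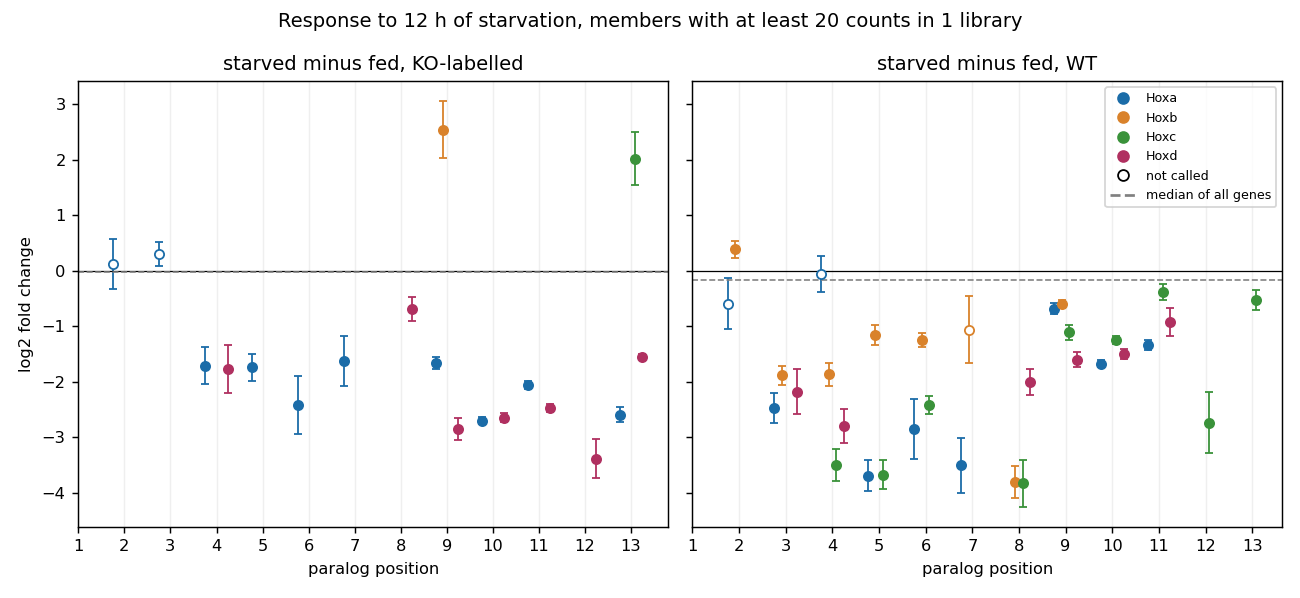
log2 fold change, starved over fed, ± SE by paralog position in KO-labelled (left) and WT (right) cells for members with at least 20 counts in a library of that label, open circles not passing the test and the dashed line marking the median of all genes. In KO-labelled cells Hoxb9 and Hoxc13 are called above 0 and 15 members below it, while in WT cells Hoxb2 is called above 0 and the falls are deepest at groups 4 to 8.

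In KO-labelled cells 3 members were higher after starvation, 16 fell and 17 were not called, where 79.7% of all tested genes were called (39.4% higher and 40.3% lower). Over the 20 members with at least 20 counts in a KO-labelled library, 3 were higher and 15 lower with a median of -1.73, beside -0.02 over all tested genes. The fibroblast markers had a median of -0.54, with 3 higher, 8 lower and 1 not called. Blood and macrophage markers summed to 52.9 and 53.9 CPM in starved against 20.9 and 21.8 CPM in fed KO-labelled libraries and endothelial markers to 5.54 and 5.57 CPM in starved against 4.28 and 2.80 CPM in fed ones. In each of these lists 2 of the 3 tested markers were higher and 1 lower. The part of these markers was not tested here either. Among those higher, Hoxb9 rose by a ratio of 6.04 (2.66 to 16.1) and Hoxc13 by a ratio of 4.16 (2.09 to 8.98), on the few counts given above. Only in starved KO-labelled libraries did Hoxb9 and Hoxc13 reach 20 counts, and only in fed ones did Hoxa6, Hoxa7 and Hoxd4. The direction of these members among the 20 followed from that cut.

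Among the falls, Hoxd13 had 91.9 and 93.3 CPM in starved against 271 CPM in both fed KO-labelled libraries (-1.55 ± 0.048, adjusted p = 1.38e-17). Hoxd11 fell by -2.47 ± 0.069, Hoxd10 by -2.65 ± 0.083, Hoxd9 by -2.85 ± 0.20 and Hoxd12, with 10 and 27 counts starved and 269 and 178 counts fed, by -3.39 ± 0.35. Hoxd4 fell by -1.77 ± 0.43 and Hoxd8 by -0.69 ± 0.22, a call that ends without starved KO-labelled replicate 2 (-0.26) or fed replicate 1 (-0.60). Its starved libraries read 3.88 and 1.95 CPM. Hoxa10 had 8.96 and 9.26 CPM in starved against 59.5 and 59.1 CPM in fed KO-labelled libraries (-2.70 ± 0.064). Hoxa13 fell by -2.60 ± 0.13, Hoxa11 by -2.06 ± 0.078, Hoxa9 by -1.66 ± 0.10, Hoxa7 by -1.63 ± 0.45, Hoxa6 by -2.42 ± 0.52, Hoxa5 by -1.74 ± 0.24 and Hoxa4 by -1.71 ± 0.33. Hoxa2 (0.12 ± 0.45) and Hoxa3 (0.30 ± 0.21) did not pass. Hoxc9 was also called lower, on 0 counts starved and 3 and 6 fed, and Hoxc10, with 2 and 0 counts starved and 8 and 2 fed, was not called (adjusted p = 0.0711). Hoxc10 was called lower with library totals (-2.23), without either starved WT library (-2.04 for each), without fed KO-labelled replicate 2 (-2.51) and without starved KO-labelled replicate 1, which leaves 0 starved counts and no fold. Over the 11 Hoxa members Spearman's rho between position and fold change was -0.79, and over 7 Hoxd members it was -0.25. The medians were -1.73 for groups 4 to 8 (6 members) and -2.47 for groups 9 to 13 (11 members). Both include members named above whose direction followed from the count cut.

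The difference between the 2 starvation responses, KO-labelled minus WT, was tested as an interaction. It was past the threshold for 17 of 36 members, 8 above 0 and 9 below, where 64.5% of all tested genes were called (34.1% above and 30.4% below). Among the 17 members with at least 20 counts in a library of each label, 7 were above 0, 7 below and 3 not called. Those above 0 in Hoxa were at the 3′ side, among them Hoxa3 (2.79 ± 0.35), Hoxa5 (1.95 ± 0.40) and Hoxa7 (1.88 ± 0.72), and those below 0 were Hoxa4 (-1.66 ± 0.47), Hoxa9 (-0.98 ± 0.15), Hoxa10 (-1.02 ± 0.092) and Hoxa11 (-0.73 ± 0.12). In Hoxd, Hoxd8 was above 0 (1.31 ± 0.33), and Hoxd9 (-1.25 ± 0.25), Hoxd10 (-1.15 ± 0.13) and Hoxd11 (-1.55 ± 0.29) were below. Hoxb9 (3.14 ± 0.51) and Hoxc13 (2.55 ± 0.51) were above 0 on few KO-labelled counts. The calls of Hoxb8, Hoxc9 and Hoxd13 rest on 13 or fewer counts in each library of 1 label. The Hoxa7 call ends without fed WT replicate 1 (1.58), starved WT replicate 2 (1.28), fed KO-labelled replicate 1 (1.70) or starved KO-labelled replicate 1 (1.38). Hoxd4 (1.03 ± 0.59) was not called but was without fed KO-labelled replicate 1 (1.48) or starved KO-labelled replicate 2 (1.61), and Hoxa6 was without starved WT replicate 2 (3.36). Hoxa3 shows the difference in its levels, at 3.55 and 2.59 CPM starved and 2.48 and 2.47 CPM fed in KO-labelled libraries against 0.553 and 0.969 CPM starved and 4.28 and 4.26 CPM fed in WT libraries. Hoxa4 shows the other sign, at 0.554 and 0.416 CPM starved and 1.64 and 1.53 CPM fed in KO-labelled libraries against 1.41 and 1.06 CPM starved and 1.30 and 1.27 CPM fed in WT libraries. The antisense Hoxaas2 covers 19.4% of the Hoxa3 transcript and Gm28308, on the same strand, 10.1%. The antisense Gm29430 covers 16% of the Hoxa4 transcript, and the antisense Hoxaas3 28.8% of the Hoxa7 transcript.

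Genes that act with or on Hox genes were taken from lists. Their counts stand beside the shares of all tested genes given above: 74.4% called between fed labels, 79.7% in KO-labelled starvation (40.3% lower) and 81.6% in WT starvation (44.8% lower). The counts of called TALE and Polycomb genes between fed labels lie near that share and are no result about these lists. Of 9 TALE cofactors, 2 were higher, 4 lower and 3 not called in fed KO-labelled cells (median -0.09, beside -0.06 over all tested genes). Meis1, a partner of Hox proteins in proximal limb and blood, had 0.0443 and 0.113 CPM in starved and 0.486 and 0.159 CPM in fed KO-labelled libraries, against 5.40 and 5.42 CPM in starved and 18.4 and 18.9 CPM in fed WT libraries (fed -5.77 ± 0.22). Meis2 was lower by -2.43 ± 0.088 and Pknox2 higher by 3.73 ± 0.11 in fed KO-labelled cells. In starvation 6 of the 9 fell and 2 were higher in KO-labelled cells, and 6 fell and 1 was higher in WT cells. Pknox2 (-2.53 ± 0.088) fell in KO-labelled cells and Meis1 (-1.78 ± 0.16) in WT cells.

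Of 26 Polycomb genes 10 were higher, 8 lower and 8 not called in fed KO-labelled cells (median 0.022). Cbx7, a chromodomain subunit, was higher by 1.74 ± 0.16, the accessory gene Phf1 lower by -0.96 ± 0.061 and Eed, a core subunit, higher by 0.85 ± 0.058. In starvation 11 Polycomb genes were higher and 10 lower in KO-labelled cells, and 12 higher and 10 lower in WT cells, with Phf19 falling in both (-2.63 ± 0.12 and -2.87 ± 0.14). Of 13 tested trithorax and H3K27 demethylase genes 6 were higher and 6 lower in fed KO-labelled cells (median 0.024). Kdm6a, an X-linked H3K27 demethylase gene, was higher by 0.95 ± 0.045 and Ash2l lower by -0.89 ± 0.040.

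Of 13 tested genes of the retinoic acid and Cdx inputs that set Hox expression in embryos, 6 were higher and 5 lower in fed KO-labelled cells (median 0.0018). Crabp2, a retinoic acid carrier, had 9.64 and 9.41 CPM in starved and 7.86 and 9.68 CPM in fed KO-labelled libraries, against 124 and 131 CPM in starved and 239 and 238 CPM in fed WT libraries. Of 36 tested transcription factors of limb and body position, 17 were higher, 17 lower and 2 not called in fed KO-labelled cells. Nkx3-2, a skeletal gene, was at least 404-fold and Gata4, a heart and lateral plate gene, at least 190-fold higher in fed KO-labelled cells, and Hand2, a gene of the posterior limb bud, at least 62.8-fold lower. In starved KO-labelled cells Tbx5, the forelimb gene, was at least 12.2-fold higher, with 53 and 56 counts against 0 in both starved WT libraries. In starvation 29 of the 36 fell and 1 was higher in KO-labelled cells, and 20 fell and 4 were higher in WT cells. Medians were -1.15 in KO-labelled and -0.95 in WT cells, beside -0.02 and -0.17 over all tested genes.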

How the data were processed

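RNA from 8 libraries of mouse embryonic fibroblasts was sequenced. What the authors deposited is a table of raw read counts, 1 row per RefSeq transcript. TopHat2 2.0.9, bedtools and the genome build mm9 are named in the submitters' processing notes, while read filters, the treatment of multi-mapping reads and strand are not given in these sources. Per-sample values in 4 columns could be matched to no label and stayed out. Each symbol was represented by its row of highest total. The test was that of edgeR 4.0.16 under R 4.3.3 (filterByExpr, TMM, 1 coefficient per group over all 8 libraries, quasi-likelihood F test with 4 residual degrees of freedom, Benjamini-Hochberg adjustment over 14418 genes, threshold 0.05). The common biological coefficient of variation was 0.0341, and replicates differed by more than counting noise (chi-square per degree of freedom 3.37 to 6.21). Standard errors were derived by dividing the size of the log2 fold change by the square root of F. CPM per kilobase used GENCODE M21 transcript lengths (GRCm38), matched for all 39 members by accession, and overlaps with other genes were read from the same annotation. Values per library were to be given for the 2 members of highest mean CPM per cluster and the 4 called members of largest change in each direction and comparison, every other tested member by its fold change or level, and up to 3 called genes per list and comparison. Values per library of further members, and the neighbours beyond 3, were chosen after their values were seen. Values of 1 member enter counts, medians and sums and are not reported here singly. The members and lists were chosen with earlier results of these data known. Alternatives were scaling by library totals or RLE, other filters, summed isoform rows, a replicate block, only the groups compared, each library left out and DESeq2 1.42.0.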

Additional observations from a re-analysis of the deposited data

Results flagged for a closer look

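The starvation response of 16 members named here differed between KO-labelled and WT cells by the interaction test (edgeR's quasi-likelihood test, adjusted p under 0.05), given here as log2 fold change in KO-labelled minus that in WT cells. For Hoxa3 it was 2.79, with 0.30 in KO-labelled, which did not pass, against -2.48 in WT cells. It was 1.95 for Hoxa5, 1.88 for Hoxa7, 1.31 for Hoxd8 and -1.66 for Hoxa4. For the more 5′ genes that fell further in KO-labelled cells it was -0.98 for Hoxa9, -1.02 for Hoxa10, -0.73 for Hoxa11, -1.25 for Hoxd9, -1.15 for Hoxd10 and -1.55 for Hoxd11. For Hoxb9 it was 3.14 and for Hoxc13 2.55, both resting on at most 25 counts per KO-labelled library. For Hoxb8 it was 6.87 and for Hoxc9 -3.80, and their KO-labelled libraries held 2 counts and 9 counts in all, so the sizes are not interpretable. For Hoxd13 it was -1.31, resting on 2 to 13 counts per WT library. Genotype label, sex and line cannot be told apart in these differences.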

How the results depend on the processing

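The number of members called stayed within 1.5 times the main number in all 5 comparisons under each alternative run. Leaving out 1 library gave 27 to 30 (30 in the main analysis) for WT starvation, 18 to 20 (19) for KO-labelled starvation, 30 to 32 (31) between fed labels, 29 to 30 (30) between starved labels and 14 to 17 (17) for the interaction. Of 2662 values for single members, 2597 kept their side of the threshold and, where called, their direction. Another 41 lost the call, 20 gained it and 4 turned where either run called them. Changes of sign between uncalled values were not counted as turned. With library totals Hoxb2 in WT starvation was -0.073 (adjusted p = 0.676) and Hoxa11 between starved labels 0.20 (adjusted p = 0.0487). Without WT_starved replicate 2, Hoxa6 between starved labels was 2.76 (adjusted p = 0.0432; -1.19 to 2.76 over the libraries left out), and without WT_starved replicate 1 the Hoxd13 interaction was 0.44 (adjusted p = 0.713; -2.24 to 0.44). That call is also lost with library totals, with summed isoform rows and without either fed WT library. The Hoxc9 interaction call is lost with library totals and with a replicate block. It is also lost without any 1 of the fed libraries except KO-labelled replicate 1 or without either starved KO-labelled library. The Hoxa7 interaction call is lost under 4 of the left-out libraries and that of Hoxb8 without starved KO-labelled replicate 1. The cause of these changes was not tested. Library totals moved the median log2 fold change of all genes to -0.63 in WT starvation (main -0.17), -0.27 in KO-labelled starvation (-0.02), 0.05 between fed labels (-0.06), 0.39 between starved labels (0.07) and 0.29 in the interaction (0.10). The share of calls that were higher became 28.2% (45.0%), 37.0% (49.4%), 55.1% (46.4%), 67.4% (52.6%) and 67.0% (52.9%). Same-numbered replicates share only a number (correlation of deviations -0.044 to 0.031), and a replicate block called 30, 19, 31, 30 and 16 members. For the 5 of 10 Hoxb and 6 of 9 Hoxc members at 0 counts in all KO-labelled libraries, differences beyond the bounds cannot be measured at this depth.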
